A study of Homo sapiens with 4 samples.

Results

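The chemokine and interleukin ligand genes of BICR10 cells were examined as a group. Members were chosen by name, as every gene in the count tables whose symbol follows the CXCL, CCL, CX3CL1 or IL numbering for a ligand, together with LIF, CSF1, CSF2, CSF3, TNF, TNFSF10 and TSLP. This gave 83 genes of 60623 in the tables. The comparison was between 2 libraries of BICR10 cells transduced with a lentiviral control short hairpin (shControl) and 2 libraries of cells transduced with a hairpin against YEATS2 (shYEATS2), and all 4 libraries came from poly(A) RNA. BICR10 is an established head and neck cancer cell line, and YEATS2 is a reader of acylated histone lysines. The design asked how gene expression changed when YEATS2 was silenced. The labels do not say which hairpin each library carried, nor whether the libraries of a group came from separate cultures, so the p-values measure the spread between these libraries, which may be technical.

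Counts on genes ranged from 11334133 to 47297970 per library, and the shYEATS2 libraries were the shallower ones (24072396 and 11334133). YEATS2 itself, the targeted gene, was at 66.1 and 66.7 CPM in shControl and at 29.2 and 29.1 CPM in shYEATS2. Both shYEATS2 libraries were thus below both shControl libraries, with a mean at 44% of the control mean (log2 fold change −1.19 ± 0.08 SE, edgeR adjusted p = 3.6e-21). CPM is a gene's count per 1000000 counts on genes, scaled by the TMM factors of edgeR. All fold changes below are shYEATS2 over shControl, with the standard error (SE) of the log2 value. Tests were edgeR's quasi-likelihood tests fitted on 17058 genes, with p-values adjusted by the Benjamini-Hochberg method over all of them, and a gene is called higher or lower at an adjusted p under 0.05. The labelled cell type was checked against marker lists. All 15 epithelial markers had counts, and 10 of them reached a mean of 1 CPM over all 4 libraries. KRT8 was at a mean of 266 CPM and KRT18 at 111 CPM in shControl. But TP63, a defining squamous gene, had 3 counts at most in any library, and EPCAM had a mean of 1.01 CPM and CDH1 of 0.335 CPM in shControl. The fibroblast and mesenchymal list, which holds collagens, was far more abundant, at a summed 9721 to 9743 CPM in shControl. All 15 of its genes had counts too, and 14 reached a mean of 1 CPM over all libraries.

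Chemokines are small secreted proteins that bind G-protein-coupled receptors and direct the migration of leukocytes, stromal cells and tumor cells. They are named by the spacing of their leading cysteines (CC, CXC, CX3C), and the CXC chemokines with a Glu-Leu-Arg (ELR) motif attract neutrophils through CXCR1 and CXCR2. Interleukins are a functional class rather than a sequence family: the IL-1 family signals through Toll/IL-1 receptor domains, and the IL-6 family, the short-chain cytokines and several others signal through JAK and STAT proteins. Carcinoma cells are known to make many of these ligands, and the messenger RNAs of several are short-lived.

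Of the 83 genes, 54 had at least 1 count in any library and 29 had 0 counts in all 4. A count was present in every library for 31 genes, 24 had enough counts for the test, and 22 reached a mean of 1 CPM in a group. Only 3 genes reached a mean of 10 CPM, namely CSF1, CXCL12 and LIF. The test needed about 0.313 CPM in 2 libraries. This level was passed in all 4 libraries by 22 of the 24 genes tested, while CCL5 passed only through the shYEATS2 libraries, and TNFSF10 was under it in 1 shYEATS2 library. Counts and medians over the 24 genes are therefore descriptions of the genes that passed, not of all 83.

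Families differed in how many of their genes had counts. All 4 colony-stimulating factor genes counted with IL34 had counts, as did 5 of 6 ELR chemokines, 14 of 24 CC chemokines and 3 of 6 IL-10 family genes, of which none had enough for the test. Genes at 0 in every library included CXCL9, CXCL10 and CXCL11, the interferon-induced CXCR3 ligands, and also CX3CL1, CCL3, CCL4, IL2, IL10, IL17A, IL22, IL33, IL36A and IL36B. A count of 0 allows up to 3 counts, which is 0.0661 to 0.255 CPM depending on the library, and covers counting error only.

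**Figure D1:**
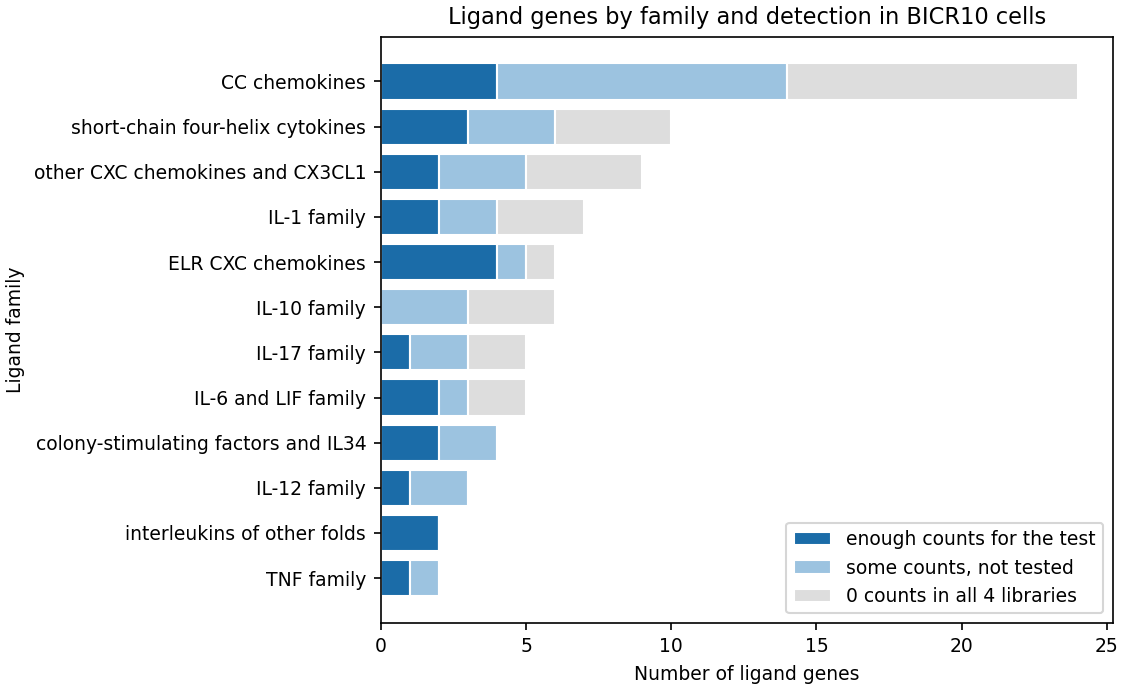
Number of ligand genes (horizontal axis) in each of 12 families (vertical axis), split into genes with enough counts for the test, genes with some counts that were not tested, and genes with 0 counts in all 4 BICR10 libraries. The CC chemokines are the largest family, with 4 of 24 genes tested, and the ELR CXC chemokines have 4 of 6 tested.

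The 30 genes with counts that were not tested had at most 20 counts over all 4 libraries. CCL8 had 11 and 7 counts in shControl and 0 and 2 in shYEATS2. CXCL14 had 6 and 6 counts in shControl and 1 and 1 in shYEATS2. IL11 had 5 and 6 against 3 and 5, CCL20 had 5 and 3 against 5 and 2, IL1B had 4 and 1 against 2 and 0, and TNF had 2 and 0 against 1 and 0. At these counts no difference between the groups could be read for IL1B or TNF, the inflammatory cytokines that in many cells induce other members of this list. The counts are not scaled for the shallower shYEATS2 libraries. As CPM, CCL20 was at 0.110 and 0.0794 in shControl and at 0.197 and 0.170 in shYEATS2. IL11 was at 0.110 and 0.159 against 0.118 and 0.424, CCL8 at 0.243 and 0.185 against 0 and 0.170, and CXCL14 at 0.132 and 0.159 against 0.0395 and 0.0848.

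Summed over the 83 genes, ligand expression was 299 and 295 CPM in shControl and 287 and 271 CPM in shYEATS2. CSF1, which drives the survival and growth of macrophages, made up 69.8% and 69.2% of that sum in shControl and 70.8% and 67.0% in shYEATS2. CXCL12 made up 13.0% and 11.7% in shControl and 1.75% and 1.63% in shYEATS2. Without these 2 genes the sum was 51.7 and 56.4 CPM in shControl and 78.8 and 84.9 CPM in shYEATS2. Without CSF1 alone it was 90.5 and 90.8 CPM in shControl and 83.8 and 89.3 CPM in shYEATS2. The total thus hid a lower CXCL12 and a higher summed level of the remaining genes. These still included CXCL16, CCL28, TNFSF10 and IL17D, which were called lower.

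The test called 14 of the 24 ligands higher in shYEATS2 and 5 lower, and left 5 uncalled. The background was wide, since 22.6% of all genes tested were called higher and 23.6% were called lower. Among the ligands, 58.3% were higher and 20.8% were lower, so the higher share lay above the background and the lower share near it. DESeq2, run on the same genes, called 9 ligands higher and 3 lower, beside 16.5% and 17.3% of all genes tested. With 1 library left out, edgeR called 9 ligands higher without shControl replicate 1 (15.2% of all genes) and 9 without shYEATS2 replicate 1 (17.1% of all genes). When the library totals replaced the TMM factors, the median of all genes moved by 0.13 on the log2 scale and the calls over all genes went from 3857 higher and 4019 lower to 5441 and 2567, while the ligands stayed at 14 and 5. The median log2 fold change was 0.53 over the ligands tested and −0.01 over all genes tested. Both shYEATS2 libraries lay above both shControl libraries for 17 ligands and below them for 7, against 35.3% and 36.3% of all genes tested. In these bulk libraries, fewer expressing cells and less RNA per cell cannot be told apart.

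**Figure D2:**
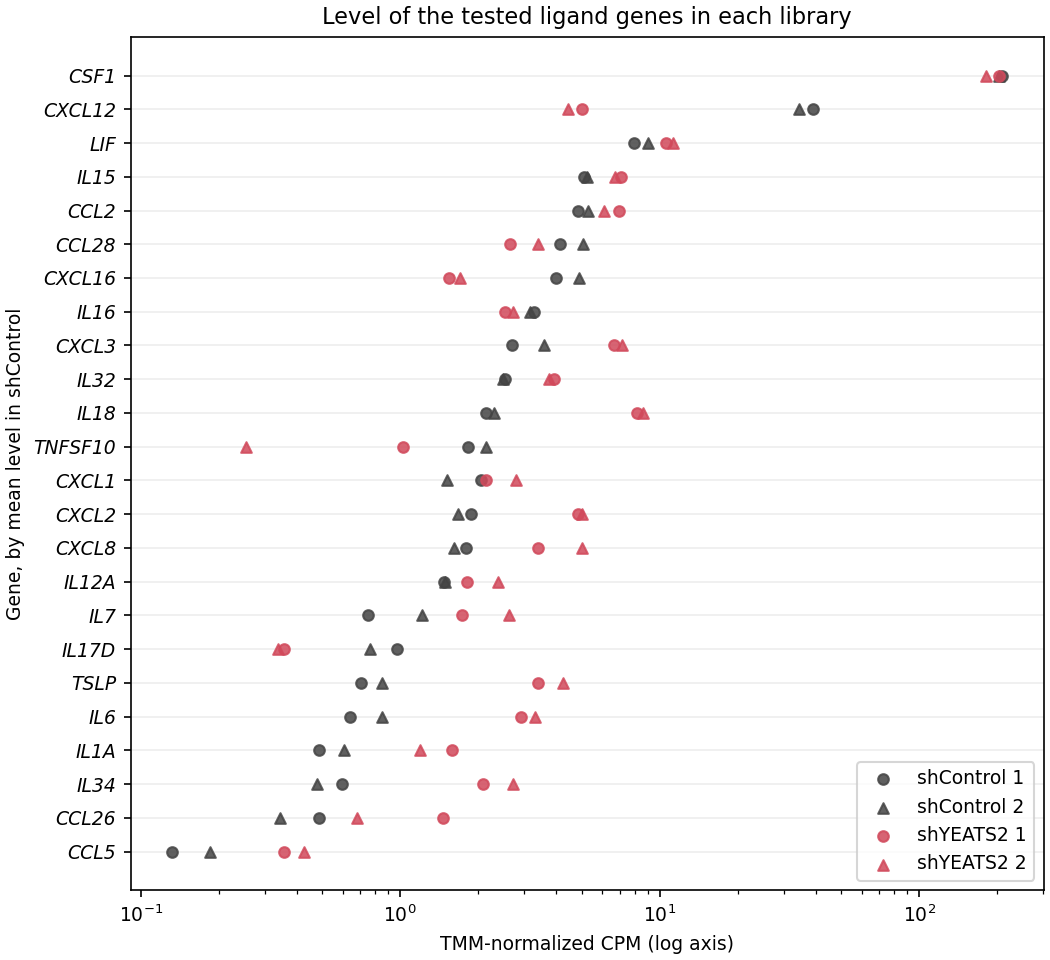
TMM-normalized CPM on a log axis for each of the 24 ligand genes tested, one row per gene in order of the mean level in shControl, with circles and triangles for the first and second library of each group (shControl dark, shYEATS2 red). CSF1 lies near 200 CPM in all 4 libraries, CXCL12 falls from above 34 to about 5 CPM, and most genes with shYEATS2 points to the right lie under 10 CPM.

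Per kilobase of exon, CSF1 ranked highest of the tested ligands in both groups, at 39.4 CPM per kb in shControl and 36.7 CPM per kb in shYEATS2. CXCL12 went from rank 2 (5.96 CPM per kb) to rank 15 (0.767 CPM per kb). CXCL2 went from rank 8 (1.27 CPM per kb) to rank 2 (3.53 CPM per kb), and IL18 from rank 10 (0.852 CPM per kb) to rank 4 (3.24 CPM per kb). The order of the ligands below CSF1 therefore differed between the groups, and 17 of the 19 genes called were under 10 CPM in both groups.

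The ELR CXC chemokines lie together on chromosome 4, where 6 of them (CXCL8, CXCL6, CXCL1, CXCL5, CXCL3 and CXCL2) span chr4:73740519-74099196 in GRCh38. Of the 4 tested, CXCL2, CXCL3 and CXCL8 were higher and CXCL1 was not called, while CXCL5 had 1 count in all and CXCL6 had 0. Their promoters are shown because the tested ones all hold a match to the core of the NF-kB motif (GGNNTTTCC, searched on both strands) within 250 bases before and 50 bases after the RefSeq start, and the letters around it were nearly alike between CXCL1, CXCL2 and CXCL3. The match is in capitals, each line reads 5′ to 3′ along the gene's strand, and the build is RefSeq GRCh38.p14. The windows lie at chr4:73869304-73869333 (plus strand, CXCL1), chr4:74099254-74099283 (minus strand, CXCL2), chr4:74038749-74038778 (minus strand, CXCL3), chr4:73740467-73740496 (plus strand, CXCL8), chr4:73998749-73998778 (minus strand, CXCL5) and chr4:73836578-73836607 (plus strand, CXCL6).
CXCL1: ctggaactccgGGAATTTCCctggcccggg
CXCL2: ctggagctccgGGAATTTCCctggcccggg
CXCL3: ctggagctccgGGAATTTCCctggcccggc
CXCL8: ttgcaaatcgtGGAATTTCCtctgacataa
CXCL5: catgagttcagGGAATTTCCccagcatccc
CXCL6: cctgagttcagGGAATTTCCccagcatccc

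These 6 matches carry the same 9 letters, including those of CXCL5 and CXCL6, which were all but silent. In CXCL1 the match runs from 78 to 70 bases before the start, and in CXCL8 from 91 to 83 bases before it. CXCL1, CXCL2 and CXCL3 each held a second match 53 to 45 bases before the start. Of the 27167 genes with a promoter in the RefSeq table, 7.60% held this motif in at least 1 promoter. Of the 83 ligand genes, 59 had a promoter in the table and 15 of them held it. Among the ligands tested, 15 had a promoter in the table and 8 held it, made up of 6 of the 8 higher genes, 1 of the 4 lower genes and CXCL1. A match describes the letters and does not show a site in use.

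CXCL2, a neutrophil attractant, was at 1.87 and 1.67 CPM in shControl and at 4.86 and 5.01 CPM in shYEATS2. CXCL3, which binds the same receptor, was at 2.69 and 3.57 CPM in shControl and at 6.67 and 7.13 CPM in shYEATS2. CXCL8, the interleukin-8 gene, was at 1.79 and 1.61 CPM in shControl and at 3.39 and 5.01 CPM in shYEATS2. For these 3 genes the groups stood well apart, with log2 fold changes of 1.47 ± 0.22 for CXCL2, 1.14 ± 0.18 for CXCL3 and 1.24 ± 0.24 for CXCL8 (edgeR adjusted p = 4.0e-08, 2.0e-07 and 1.1e-05). CXCL1, known for its role in melanoma growth and neutrophil recruitment, was at 2.05 and 1.51 CPM in shControl and at 2.13 and 2.80 CPM in shYEATS2. The nearest libraries of the 2 groups almost touched, and the difference was not called (log2 fold change 0.41 ± 0.27, edgeR adjusted p = 0.205). The coding sequences of CXCL1, CXCL2 and CXCL3 were 90.7% to 94.4% identical in pairs, against 50.3% to 52.8% with CXCL8. Reads that mapped to more than 1 place were not counted, so the levels of CXCL1, CXCL2 and CXCL3 are uncertain, and those of CXCL8 less so. The receptors CXCR1 and CXCR2 had 0 counts in all 4 libraries.

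The same chemokines are known for AU-rich elements, ATTTA repeats in the 3′ untranslated region (UTR) that mark messenger RNAs for fast decay. A window of the 3′ UTR is shown for each tested ELR gene, with ATTTA in capitals, because these genes held 4 of the 6 highest densities of this repeat among the 24 ligands tested. The windows lie in GRCh38 at chr4:74097586-74097615 (minus strand, CXCL2), chr4:74037082-74037111 (minus strand, CXCL3), chr4:73743111-73743140 (plus strand, CXCL8) and chr4:73870673-73870702 (plus strand, CXCL1), in the 3′ UTR of each canonical transcript.
CXCL2: cttctATTTATTTATTTATTTATTTAtttg
CXCL3: gttctacttATTTAtgtATTTAtttttgaa
CXCL8: cctATTTAttATTTAtgtATTTATTTAagc
CXCL1: aagtcttctATTTATTTATTTAttcattag

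ATTTA occurred 14.0 times per kb of 3′ UTR in CXCL2, 10.4 times in CXCL3, 7.77 times in CXCL1 and 7.19 times in CXCL8. IL12A (17.4 per kb) and IL6 (14.1 per kb) were also dense, whereas IL18, IL34, IL32, CCL26, IL17D and CCL5 held none. The longer element TTATTTATT was present in 6 of the 24 ligands tested (25.0%), against 1238 of 12900 tested genes with an annotated 3′ UTR (9.60%). Those 6 were CXCL2, CXCL3, CXCL8 and LIF, which were higher, CCL28, which was lower, and CXCL1, which was not called. The median density was 3.55 per kb over the higher ligands, 2.03 per kb over the lower ligands and 1.73 per kb over all tested genes. Of 19 genes for AU-rich element decay and stability, 7 were higher, 5 were lower and 7 were not called. The lower share was near the 23.6% of all genes tested that were called lower, and 22.6% of all genes were called higher. Called decay factors moved both ways. CNOT8, a deadenylase of the CCR4-NOT complex, went from 55.7 and 58.9 CPM in shControl to 73.4 and 74.8 CPM in shYEATS2 (log2 fold change 0.37 ± 0.07, edgeR adjusted p = 8.2e-06), and its relative CNOT7 (log2 fold change 0.31) and the decay factors RC3H2 (0.29) and ZFP36L2 (0.26) were also called higher, the last 2 of them not without shControl replicate 1 (0.22 and 0.23). PAN3, a subunit of another deadenylase, went from 23.5 and 26.4 CPM to 16.1 and 19.6 CPM (−0.51 ± 0.10, edgeR adjusted p = 2.3e-05). ZC3H12A, an endonuclease that cleaves cytokine messenger RNAs, went from 32.8 and 29.1 CPM to 22.4 and 19.6 CPM (log2 fold change −0.54 ± 0.09, edgeR adjusted p = 1.4e-06). MAPKAPK2, the kinase that inactivates the decay factor tristetraprolin, went from 110 and 115 CPM to 157 and 149 CPM (log2 fold change 0.45 ± 0.06, edgeR adjusted p = 1.2e-08). ZFP36, the gene of tristetraprolin, was at 61.6 and 61.3 CPM in shControl and at 63.2 and 59.6 CPM in shYEATS2. It was not called (log2 fold change 0.003 ± 0.07, edgeR adjusted p = 0.98), nor were ZFP36L1, KHSRP and ELAVL1. The part of these genes in the ligand levels was not tested.

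Among the other CXC chemokines, both tested genes were lower in shYEATS2. CXCL12, a homeostatic chemokine made by stromal cells that acts through CXCR4 and ACKR3, was at 38.9 and 34.4 CPM in shControl and at 5.01 and 4.41 CPM in shYEATS2. This was the largest fold change of any ligand tested, a 7.63-fold lower mean that left 13.1% of the control level (log2 fold change −2.93 ± 0.12, edgeR adjusted p = 5.4e-32). CXCL16, a membrane-bound chemokine and scavenger receptor, was at 3.97 and 4.87 CPM in shControl and at 1.54 and 1.70 CPM in shYEATS2. Both shYEATS2 libraries were below both shControl libraries (log2 fold change −1.46 ± 0.23, edgeR adjusted p = 2.7e-07). CXCL16 shares 76 exon bases with MED11 on the opposite strand, and since the strand setting of the counting is not given, reads there could have been assigned to either gene. CXCL12 is known as a fibroblast product, and the summed level of 15 fibroblast and mesenchymal markers moved the same way, from 9721 to 9743 CPM in shControl to 4462 to 4758 CPM in shYEATS2. Collagens weighed most in this sum, with COL1A1 at a mean of 2796 CPM and COL1A2 at 2616 CPM in shControl. Of 14 of these markers tested, 10 were lower, 2 were higher (VIM and CDH2) and 2 were not called (FAP and ACTA2). Among all genes tested, 23.6% were called lower and 22.6% higher. The part of these markers in the CXCL12 result was not tested. The receptor ACKR3 was at 60.7 and 60.3 CPM in shControl and at 66.4 and 57.0 CPM in shYEATS2, which overlap (log2 fold change 0.04 ± 0.07, edgeR adjusted p = 0.66). CXCR4 had 19 and 9 counts in shControl and 4 and 8 in shYEATS2, too few to read a direction, and CXCR6, the receptor of CXCL16, had 0 counts in every library.

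Of the 24 CC chemokines, 4 were tested, with 2 higher, 1 lower and 1 not called. CCL2, the monocyte attractant, was at 4.83 and 5.29 CPM in shControl and at 6.95 and 6.11 CPM in shYEATS2. CCL26, an eosinophil attractant, was at 0.485 and 0.344 CPM in shControl and at 1.46 and 0.679 CPM in shYEATS2. CCL28, a mucosal epithelial chemokine, was at 4.14 and 5.08 CPM in shControl and at 2.64 and 3.39 CPM in shYEATS2. The groups did not overlap for these 3 genes, but each call was lost in at least 1 fit with a library left out. CCL2 had a log2 fold change of 0.39 ± 0.16 (edgeR adjusted p = 0.037), and the call was lost without shControl replicate 1 (0.32), shControl replicate 2 (0.45) or shYEATS2 replicate 1 (0.26). It was also lost with no filter on low counts (0.34, edgeR adjusted p = 0.136) and with thinned counts (0.41, edgeR adjusted p = 0.142). For CCL26 the log2 fold change was 1.46 ± 0.44 (edgeR adjusted p = 0.0046), and it was 0.68 and not called without shYEATS2 replicate 1. For CCL28 it was −0.65 ± 0.20 (edgeR adjusted p = 0.0060), and the call was lost without shControl replicate 2 (−0.51) or shYEATS2 replicate 1 (−0.45). DESeq2 called none of these 3 genes, with adjusted p = 0.201 for CCL2, 0.0823 for CCL26 and 0.0881 for CCL28. CCL5, a T-cell attractant, was at 0.132 and 0.185 CPM in shControl and at 0.355 and 0.424 CPM in shYEATS2, from 5 to 9 counts a library, and was not called (log2 fold change 1.25 ± 0.71, edgeR adjusted p = 0.136).

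The CC genes lie in clusters in which few neighbors had counts. CCL2 shares chr17:34255274-34363233 with CCL7, CCL11, CCL8, CCL13 and CCL1, of which CCL8 alone exceeded 3 counts in a library. CCL5 lies at the edge of a cluster of 8 genes at chr17:35871491-36105621, where CCL16 and CCL18 had 2 counts at most and the other 5 had 0. CCL26 and CCL24 span chr7:75769533-75823356, and CCL24 had 2 counts in all. The cognate receptor genes were near the limit of detection, with CCR2 at 1 count over all libraries. CCR3, which binds CCL26, was at 0.441 and 0.397 CPM in shControl and at 0.434 and 1.02 CPM in shYEATS2, and was not called (log2 fold change 0.62 ± 0.52, edgeR adjusted p = 0.34). CCR10, which binds CCL28, was at 0.265 and 0.265 CPM in shControl and at 0.553 and 0.594 CPM in shYEATS2, and was not called (1.09 ± 0.57, edgeR adjusted p = 0.11).

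Both tested genes of the IL-1 family were higher in shYEATS2. IL18, which is made as a precursor and released after cleavage by caspase-1, was at 2.14 and 2.30 CPM in shControl and at 8.21 and 8.65 CPM in shYEATS2. These values did not come near each other, and the mean was 3.78-fold higher (log2 fold change 1.92 ± 0.18, edgeR adjusted p = 1.6e-14). IL1A, an alarmin held in epithelial cells, was at 0.485 and 0.609 CPM in shControl and at 1.58 and 1.19 CPM in shYEATS2. Both shYEATS2 libraries were above both shControl libraries (log2 fold change 1.39 ± 0.40, edgeR adjusted p = 0.0026), and the call was lost without shYEATS2 replicate 1 (1.11). IL1A stands with IL1B, IL37, IL36A and IL36B at chr2:112773925-113052867, and it was the only gene of that cluster with enough counts for the test. IL33 had 0 counts in all libraries.

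The receptor chains of this family moved in both directions. IL1R1, the signaling receptor of IL1A, was lower, from a mean of 410 CPM (SD 3.03, n = 2) in shControl to 188 CPM (SD 9.48, n = 2) in shYEATS2 (log2 fold change −1.13 ± 0.06, edgeR adjusted p = 1.1e-25). IL1R2, a decoy receptor that binds interleukin-1 without signaling, was at 363 and 383 CPM in shControl and at 104 and 99.9 CPM in shYEATS2, and was lower too (−1.87 ± 0.06, edgeR adjusted p = 1.9e-36). IL1RAP, the shared accessory chain, was higher, at 15.1 and 15.7 CPM in shControl and at 33.1 and 32.8 CPM in shYEATS2 (1.10 ± 0.09, edgeR adjusted p = 3.0e-16). IL1RL1, the receptor of IL-33, was at 2.98 and 3.07 CPM in shControl and at 7.03 and 8.06 CPM in shYEATS2 (1.30 ± 0.17, edgeR adjusted p = 2.7e-09), although its ligand gene had no counts. For IL18, the chain IL18R1 was at 7.89 and 7.86 CPM in shControl and at 6.28 and 7.47 CPM in shYEATS2 and was not called (edgeR adjusted p = 0.20), and the chain IL18RAP had 2 counts at most.

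Of 13 tested genes for cytokine processing and release, 4 were higher, 6 were lower and 3 were not called, beside 22.6% higher and 23.6% lower among all genes tested. DPP4, a peptidase known to trim and inactivate CXCL12, had the largest change, from 7.25 and 6.83 CPM in shControl to 1.54 and 0.933 CPM in shYEATS2 (log2 fold change −2.40 ± 0.21, edgeR adjusted p = 2.6e-15). CASP1, the caspase that cleaves pro-IL-18, went from 18.0 and 19.7 CPM in shControl to 12.9 and 13.2 CPM in shYEATS2 (log2 fold change −0.53 ± 0.11, edgeR adjusted p = 3.0e-05). GSDMD, the pore through which cleaved IL-18 leaves the cell, went from 30.3 and 32.2 CPM to 20.9 and 18.1 CPM (−0.66 ± 0.09, edgeR adjusted p = 1.3e-08). CAPN1, the large subunit of a calpain, a protease class that cleaves pro-IL-1 alpha, went from 120 and 119 CPM to 91.8 and 78.2 CPM (−0.48 ± 0.07, edgeR adjusted p = 1.4e-08). NLRP1, an inflammasome sensor of epithelial cells, went the other way, from 37.3 and 33.6 CPM to 69.9 and 67.8 CPM (0.96 ± 0.07, edgeR adjusted p = 9.9e-18). The IL18 transcript was thus higher in libraries in which the transcripts of its caspase and its pore were lower.

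In the IL-6 and LIF family, IL6 and LIF were both higher and no other gene was tested. IL6, a cytokine of inflammation and STAT3 signaling, was at 0.639 and 0.847 CPM in shControl and at 2.92 and 3.31 CPM in shYEATS2. Every shYEATS2 value was above every shControl value, and the mean was 4.16-fold higher (log2 fold change 2.06 ± 0.30, edgeR adjusted p = 3.1e-08). LIF, which keeps stem cells undifferentiated and is often made by tumors, was at 7.98 and 9.0 CPM in shControl and at 10.6 and 11.3 CPM in shYEATS2. The groups were apart by a small step (0.36 ± 0.13, edgeR adjusted p = 0.017), and the call was lost with DESeq2 (adjusted p = 0.110), with no filter on low counts (0.31, edgeR adjusted p = 0.0774), without shControl replicate 1 (0.27) and without shYEATS2 replicate 2 (0.32). IL6 has a promoter match to the NF-kB core 72 to 64 bases before its start, at chr7:22727117-22727146 on the plus strand.
IL6: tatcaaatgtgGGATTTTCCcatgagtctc

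The receptors of these 2 cytokines were among the more abundant of the list, and they differed in direction. IL6ST, the signaling chain that IL-6 and LIF share, was at 289 and 307 CPM in shControl and at 230 and 257 CPM in shYEATS2 (log2 fold change −0.30 ± 0.06, edgeR adjusted p = 4.6e-05). IL6R, the ligand-binding chain of IL-6, was at 24.2 and 26.2 CPM in shControl and at 14.8 and 15.4 CPM in shYEATS2 (−0.75 ± 0.10, edgeR adjusted p = 3.1e-09). LIFR was at 54.6 and 53.3 CPM in shControl and at 75.2 and 85.8 CPM in shYEATS2 (0.57 ± 0.07, edgeR adjusted p = 4.4e-10). IL6 was thus higher beside lower levels of both its receptor chains, and LIF was higher beside a higher LIFR and a lower IL6ST.

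All 3 tested short-chain cytokines, TSLP, IL7 and IL15, were higher in shYEATS2. TSLP, an epithelial alarmin that acts on dendritic cells and type 2 lymphocytes, was at 0.705 and 0.847 CPM in shControl and at 3.39 and 4.24 CPM in shYEATS2. It had the largest rise of the ligands tested, 4.83-fold, with no overlap (log2 fold change 2.27 ± 0.29, edgeR adjusted p = 5.0e-10). IL7, a survival factor of lymphocytes, was at 0.750 and 1.22 CPM in shControl and at 1.74 and 2.63 CPM in shYEATS2. IL15, which maintains natural killer and memory T cells, was at 5.11 and 5.24 CPM in shControl and at 7.07 and 6.70 CPM in shYEATS2. For IL7 the log2 fold change was 1.10 ± 0.32 (edgeR adjusted p = 0.0035), and the call was lost without shControl replicate 1 (0.76) or shYEATS2 replicate 2 (0.83). For IL15 it was 0.42 ± 0.15 (edgeR adjusted p = 0.021), and the call was lost with DESeq2 (adjusted p = 0.138), with no filter on low counts (0.37, edgeR adjusted p = 0.0858) and without shControl replicate 1 (0.40), shControl replicate 2 (0.43) or shYEATS2 replicate 1 (0.36). IL7 shares 322 exon bases with ZC2HC1A on the opposite strand, which had 671, 629, 322 and 167 counts, so its level is uncertain.

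The receptor chains of TSLP, IL7 and IL15 that had enough counts rose or were not called. IL7R, a chain of both the IL-7 and the TSLP receptor, was at 41.3 and 42.3 CPM in shControl and at 74.2 and 68.3 CPM in shYEATS2 (log2 fold change 0.78 ± 0.07, edgeR adjusted p = 1.7e-14). IL15RA, which presents IL-15 to neighboring cells, was at 4.21 and 4.10 CPM in shControl and at 6.75 and 7.64 CPM in shYEATS2 (0.77 ± 0.16, edgeR adjusted p = 6.1e-05). CRLF2, the other chain of the TSLP receptor, had 19 and 16 counts in shControl and 16 and 15 in shYEATS2 (1.04 ± 0.48, edgeR adjusted p = 0.066), and it was called without shYEATS2 replicate 1 (1.57). IL2RG, the common chain through which IL-7 and IL-15 signal, had counts in 1 library only, where there were 2. The promoter of TSLP is shown for its match to the NF-kB core on the other strand, GGAAATTCC along the gene, at chr5:111071512-111071541 on the plus strand.
TSLP: aggaaggtgagGGAAATTCCtgatgacttt

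Of the 2 ligands of the macrophage receptor CSF1R, CSF1 was not called and IL34 was higher. Per kilobase of exon, CSF1 ranked highest of the tested ligands in both groups, and IL34 ranked 20 of 24 in shControl and 11 of 24 in shYEATS2. CSF1 was at 209 and 204 CPM in shControl and at 203 and 182 CPM in shYEATS2. The values lay close together, the lowest in shYEATS2 replicate 2, and the difference was not called (log2 fold change −0.10 ± 0.06, edgeR adjusted p = 0.20). Without shYEATS2 replicate 1 it was −0.20 and called, and with library totals as the scale it was 0.04. IL34, the other CSF1R ligand, was at 0.595 and 0.476 CPM in shControl and at 2.09 and 2.72 CPM in shYEATS2, with no overlap and a 4.32-fold higher mean (2.11 ± 0.34, edgeR adjusted p = 4.4e-07). CSF1R itself had 37 and 33 counts in shControl and 5 and 1 in shYEATS2 (−2.37 ± 0.61, edgeR adjusted p = 0.00073, and −3.27 without shYEATS2 replicate 1). CSF2 had 2 or 3 counts in each library, while CSF2RA, a chain of its receptor, was higher, at 6.06 and 7.65 CPM in shControl and at 20.1 and 18.2 CPM in shYEATS2 (1.5 ± 0.12, edgeR adjusted p = 4.6e-17).

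TNFSF10, known as TRAIL, a ligand that can trigger apoptosis, was lower in shYEATS2. It was at 1.83 and 2.14 CPM in shControl and at 1.03 and 0.255 CPM in shYEATS2, the last from 3 counts. The shYEATS2 libraries were below the shControl libraries but differed widely between themselves (log2 fold change −1.39 ± 0.35, edgeR adjusted p = 0.00082). The value was −2.95 without shYEATS2 replicate 1 and −0.95 without shYEATS2 replicate 2. Its death receptors were abundant and modestly higher. TNFRSF10A went from 27.4 and 27.9 CPM to 38.5 and 36.9 CPM (0.45 ± 0.08, edgeR adjusted p = 5.6e-06), and TNFRSF10B went from 89.9 and 91.0 CPM to 113 and 114 CPM (0.32 ± 0.06, edgeR adjusted p = 2.7e-05).

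IL17D, IL12A, IL16 and IL32 completed the tested ligands. IL32, a cytokine with no close relatives, was at 2.54 and 2.49 CPM in shControl and at 3.91 and 3.73 CPM in shYEATS2. The groups were clearly apart, with a log2 fold change of 0.61 ± 0.21 (edgeR adjusted p = 0.014), but the call was lost with DESeq2 (adjusted p = 0.108) and without shControl replicate 1 (0.62), shControl replicate 2 (0.59) or shYEATS2 replicate 1 (0.56). IL17D, an IL-17 family member made outside the immune system, had 44 and 29 counts in shControl and 9 and 4 in shYEATS2. It was called lower (−1.31 ± 0.50, edgeR adjusted p = 0.025), yet not with DESeq2 (adjusted p = 0.168) or without shControl replicate 1 (−1.13), shYEATS2 replicate 1 (−1.37) or shYEATS2 replicate 2 (−1.29). IL17D shares 1316 exon bases with AL161772.1 on the opposite strand, whose counts were 67, 61, 21 and 9, so reads in the shared bases could have been assigned to either gene. IL12A, a subunit of interleukin-12 and interleukin-35, was at 1.48 and 1.48 CPM in shControl and at 1.82 and 2.38 CPM in shYEATS2, and was not called (0.46 ± 0.29, edgeR adjusted p = 0.20). IL16, a chemoattractant cut from a larger precursor, was at 3.26 and 3.15 CPM in shControl and at 2.53 and 2.72 CPM in shYEATS2, and was not called (−0.30 ± 0.22, edgeR adjusted p = 0.27). IL16 shares 4351 exon bases with STARD5 on the opposite strand.

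**Figure D3:**
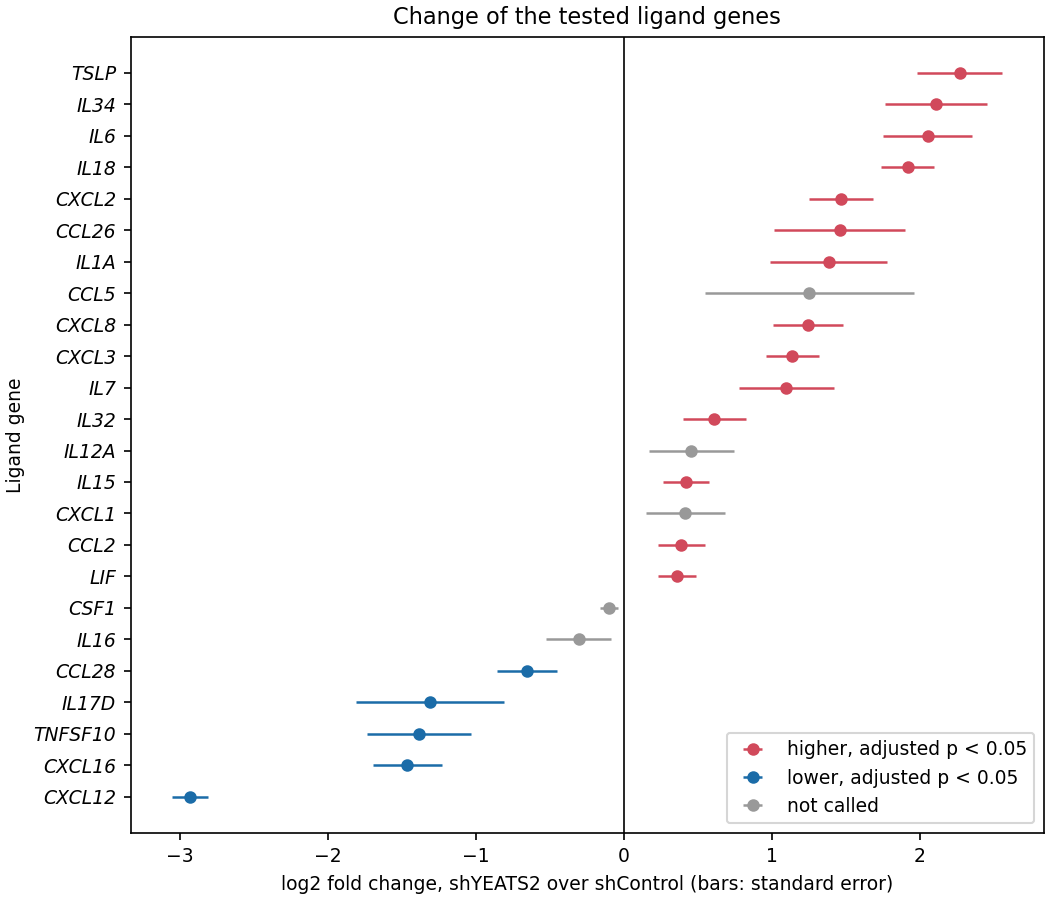
Log2 fold change of shYEATS2 over shControl (horizontal axis, points with bars of 1 standard error) for the 24 ligand genes tested, sorted from highest to lowest. The 14 genes called higher run from TSLP at 2.27 to LIF at 0.36, the 5 called lower run from CCL28 at −0.65 to CXCL12 at −2.93, and 5 genes in grey were not called.

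Across the calls, 10 of the 19 ligands were called under every alternative in which they were tested and in every fit with 1 library left out. These were CXCL2, CXCL3, CXCL8, IL18, IL6, IL34 and TSLP, which rose, and CXCL12, CXCL16 and TNFSF10, which fell. Each of the other 9 calls was lost when at least 1 library was left out, and some also with DESeq2, with no filter or with thinned counts. The same share was not taken over all called genes, so these counts describe the ligands alone.

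Of 75 receptors and receptor partners, 65 had counts, 40 were tested, 14 were higher and 9 were lower. Over all genes tested, 22.6% were higher and 23.6% were lower, and the lower share of the receptors was near the latter. The receptors had a median log2 fold change of 0.13, against −0.01 over all genes tested. The largest change was in IL13RA2, a decoy receptor for interleukin-13, which was at 1.23 and 1.35 CPM in shControl and at 8.05 and 10.7 CPM in shYEATS2 (log2 fold change 2.83 ± 0.20, edgeR adjusted p = 1.6e-19). Its ligand IL13 had 1 count in each shControl library and 0 in shYEATS2.

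**Figure D4:**
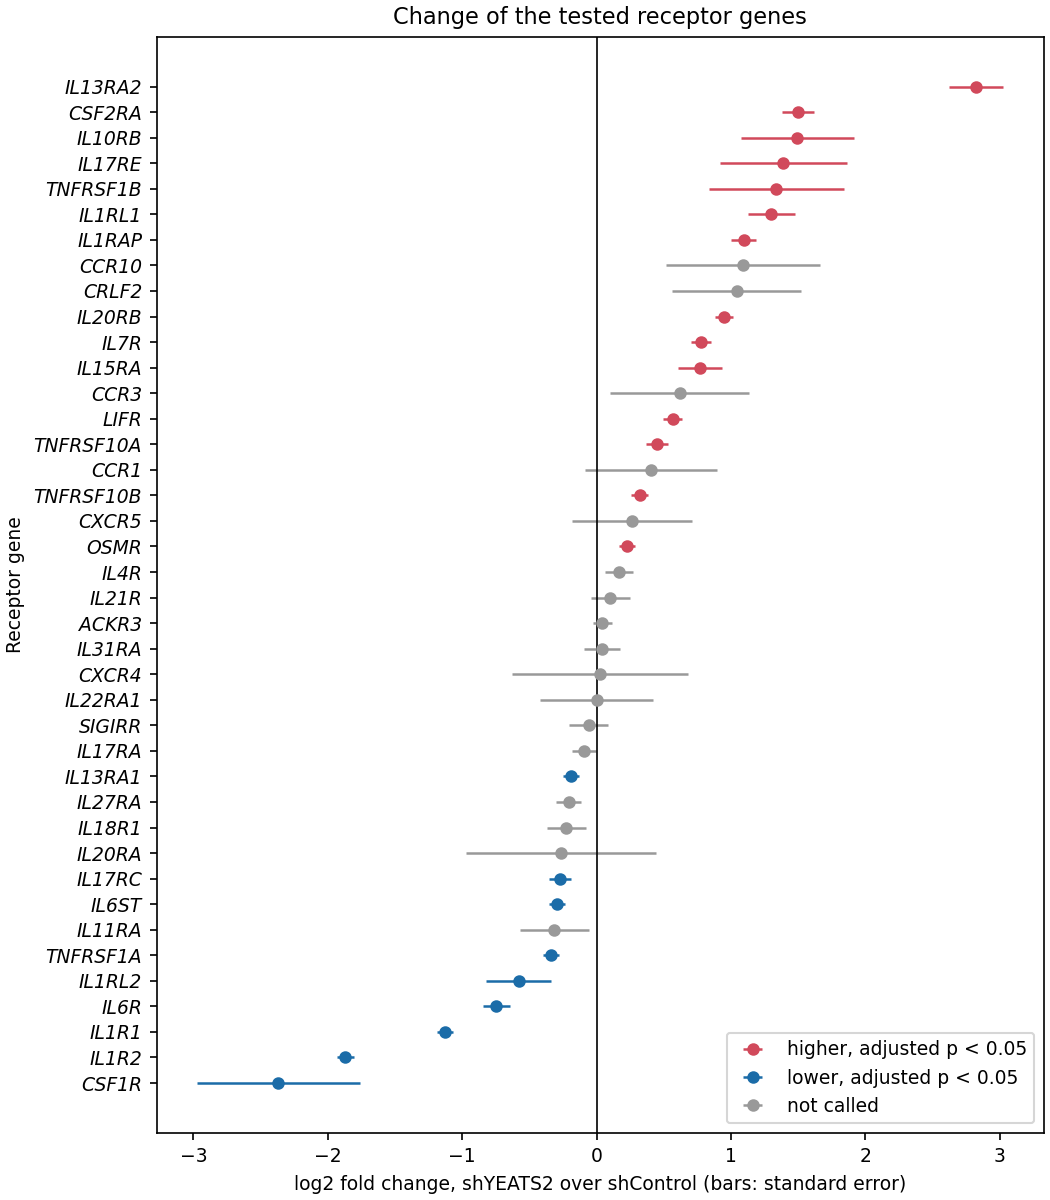
Log2 fold change of shYEATS2 over shControl (horizontal axis, bars of 1 standard error) for the 40 receptor genes tested, sorted from highest to lowest, with genes called higher in red, lower in blue and not called in grey. IL13RA2 at 2.83 and CSF2RA at 1.5 head the 14 higher genes, and CSF1R at −2.37 and IL1R2 at −1.87 lie at the lower end.

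Leukocytes are the main known source of many of these ligands, so their markers were read beside the ligand values. Of 18 leukocyte markers, 7 had 0 counts in all libraries, namely CD3D, CD3E, CD2, NKG7, MPO, TYROBP and CD68, and PTPRC, the pan-leukocyte marker, had 5 counts at most. Of 3 leukocyte markers tested, 2 were lower and 1 was not called. The lower ones were CSF1R and the monocyte marker CD14, which went from 1.74 and 1.53 CPM in shControl to 0.553 and 1.19 CPM in shYEATS2 (log2 fold change −1.08 ± 0.36, edgeR adjusted p = 0.010). The CD14 call was lost with DESeq2 (adjusted p = 0.138), without shControl replicate 1 (−0.98) and without shYEATS2 replicate 1 (−0.48). The summed level of the list was 3.04 to 3.09 CPM in shControl and 1.86 to 3.05 CPM in shYEATS2. Of 13 epithelial markers tested, 3 were higher and 7 were lower, and the summed level went from 639 CPM in each shControl library to 404 to 428 CPM in shYEATS2. KRT6A went from 55.0 and 58.2 CPM to 1.38 and 2.21 CPM (log2 fold change −5.09 ± 0.14, edgeR adjusted p = 1.2e-41), and CLDN1 from 0.639 and 0.715 CPM to 12.4 and 12.7 CPM (4.21 ± 0.20, edgeR adjusted p = 1.8e-28). Among 5 endothelial markers tested, 1 was higher and 1 was lower, with a median log2 fold change of 0.08. The sum went from 50.7 to 52.7 CPM in shControl to 31.8 to 35.6 CPM in shYEATS2. The lower gene was KDR, at 33.8 and 35.1 CPM in shControl and at 17.0 and 17.4 CPM in shYEATS2, so the sum mainly followed KDR. Beside these lists, 22.6% of all genes tested were called higher and 23.6% lower. The part of these marker changes in the ligand results was not tested.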

How the data were processed

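Poly(A) RNA of 2 shControl and 2 shYEATS2 libraries of BICR10 cells was prepared by the authors with a stranded kit and sequenced as read pairs. Per the labels, reads were checked with FastQC, aligned with STAR to GRCh38 and counted with HTSeq. The files deposited by the authors hold raw counts per gene, and the strand setting of the counting is not given in the sources used here. Reads that HTSeq did not assign to a single gene were left out, at 15.3% to 16.5% of the reads in its output. This share includes the ambiguous reads (4.31% to 4.61%) and the multiply mapped reads.

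Counts were analysed in R 4.3.3 with edgeR 4.0.16 (TMM factors from 0.950 to 1.05, filterByExpr with a minimum count of 10, robust quasi-likelihood fit on group alone, Benjamini-Hochberg adjustment). Alternatives were DESeq2 1.42.0, limma-voom (limma 3.58.1), other scalings and filters, thinned counts, a replicate block and leaving out each library. Code was tested on simulated data. With 2 libraries a group, an exact permutation test cannot go below p = 0.333. Replicates differed by more than counting noise (chi-square per degree of freedom 5.95 and 5.39), and the common biological coefficient of variation was 4.95%.

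Members and lists were chosen with earlier results of these data known. Named ligands were those tested with a mean of 1 CPM in a group or called, and others are given as counts. At most 4 genes of a list were named, by size of change among called genes with a mean of 5 CPM over all libraries and no overlap, and the single receptor chains, CASP1, DPP4, CD14, CNOT7, RC3H2, ZFP36L2 and ZC3H12A were chosen after their values were seen, as were marker genes and untested ligands quoted as examples. Uncalled decay genes were also named after their values were seen. Gene positions, exon lengths and 3′ UTRs came from GENCODE 44 (83 of 83 matched), and promoters from RefSeq GRCh38.p14 (59 of 83 matched).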

Additional observations from a re-analysis of the deposited data

How the results depend on the processing

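DESeq2 gave 9 ligands higher and 3 lower, beside 16.5% and 17.3% of all genes in that fit. Requiring at least 10 counts in every library gave 3 lower, because TNFSF10 and IL17D were then not tested. In that fit 26.7% of all genes were called lower. With no filter 11 were higher, without CCL2, LIF and IL15, beside 9.23% of all genes in that fit. With thinned counts 12 were higher and 4 lower, beside 21.7% and 22.3% of all genes. The ligands' median log2 fold change of 0.53 was 0.67 with library totals, 0.37 with no filter and 0.69 with counts thinned to the smallest library. With each library left out in turn, 9 to 12 ligands were higher and 4 to 4 lower (15.2% to 19.9% and 17.8% to 21.9% of all genes in those fits), the median ran from 0.52 to 0.67, and 11 to 14 receptors were higher and 6 to 9 lower. In these fits a group of 1 library was assumed to vary like the other group. The scalings by DESeq2 size factors, library totals and upper quartile each kept 14 ligands higher and 5 lower, and thinning left 47 of 54 ligands with a count.

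Among the named genes, directions turned only for genes that were not called. CSF1 had a log2 fold change of 0.037 with library totals. CXCR4 was −0.16 with limma-voom and ran from −1.07 to 1.0 with each library left out, with −0.28 without shControl replicate 2 and −1.07 without shYEATS2 replicate 2. ACKR3 was −0.0047 with no filter and ran from −0.10 without shYEATS2 replicate 1 to 0.13 without shYEATS2 replicate 2. The cause was not tested.

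The labels give replicate numbers but do not say whether libraries of the same number were prepared together. The difference between replicates 1 and 2 had a correlation of −0.018 between the groups, which cannot decide this. With the replicate block 14 ligands were higher and 5 lower, beside 22.7% and 24.3% of all genes. Depth limits the untested ligands, since 3 counts correspond to 0.255 CPM in the shallowest library.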

Other observations

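Secreted factors outside the ligand naming rule were read as well. Of 28 such genes, 13 were tested, 3 were higher, 3 were lower and 7 were not called. Both shares were near those of all genes tested (22.6% higher and 23.6% lower), and the list's median log2 fold change was −0.13. GDF15, a stress-induced member of the TGF-beta superfamily, was at 1.57 and 1.30 CPM in shControl and at 18.7 and 17.1 CPM in shYEATS2 (log2 fold change 3.64 ± 0.16, edgeR adjusted p = 1.5e-30), a larger change than that of any tested chemokine or interleukin gene. TGFB1 went from 143 and 138 CPM to 108 and 94.1 CPM (−0.47 ± 0.07, edgeR adjusted p = 9.0e-09), TNFSF9 from 15.8 and 17.9 CPM to 12.7 and 8.65 CPM (−0.59 ± 0.12, edgeR adjusted p = 9.1e-05), and VEGFA from 213 and 218 CPM to 255 and 256 CPM (0.24 ± 0.06, edgeR adjusted p = 0.00052).

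Other promoter motifs were searched on both strands in the same 300-base windows. Shares are of genes with a match in at least 1 promoter. The AP-1 letters TGANTCA were in 15 of the 59 ligand genes with a promoter and in 9.39% of all genes with one. The letters TATAAA were in 25 of these ligand genes and in 14.0% of all genes with a promoter. The composite motif TGATGNAA, known from ATF4 targets, was in 3 ligand genes, none of them tested, and in 4.47% of all genes with a promoter. These are counts of letters in the windows and no test was made.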
